A study of Mus musculus with 28 samples.

Results

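Monocyte-derived cells of Trem1-/- donors that had entered inflamed small intestine were compared with cells of the same donor genotype that had entered control intestine. These were 12 of the 28 samples of the study, 7 from inflamed and 5 from control recipients, and were taken by their labels for donor genotype, tissue and surgery. The donors were C57BL/6 Trem1-/- mice and the recipients C57BL/6 CCR2-/- mice, whose own monocytes are largely held back in the bone marrow for want of CCR2. In the inflamed group the small intestine was manipulated surgically 1 day before the monocytes were transferred, and control recipients had no operation at all, so the operation as a whole is part of the difference between the groups. At day 1 after the transfer, 100 cells of donor origin were sorted from each recipient, their RNA was reverse-transcribed, the cDNA was pre-amplified for the panel's targets, and the products were counted with barcoded probe pairs on the NanoString nCounter. The remaining samples were cells of wild-type (WT) donors from 5 control and 5 inflamed recipients of the same kind, and monocytes taken from bone marrow, 3 samples per genotype. The sources used here did not give the mice's ages, nor whether the transferred monocytes were pooled over donors, so that p-values measure the spread between recipients.

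Trem1 encodes an activating receptor of monocytes, macrophages and neutrophils that signals through the adaptor DAP12 and amplifies the response to Toll-like receptor ligands. Monocytes that enter the healthy gut wall normally lose inflammatory features in steps and take on those of resident macrophages, with MHC class II and the fractalkine receptor CX3CR1. In an injured gut wall the incoming cells meet cytokines and bacterial products and are known to make chemokines that call in further leukocytes.

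Values were present for 55 targets and for the housekeeping genes Actb, Gapdh and Rpl19 in all 12 samples. Trem1 itself was left blank by the authors in every Trem1-/- sample, so the genotype could not be checked against it, and Retnla was blank there too. The monocyte genes Csf1r, Spi1, Cd14 and Ccr2 were above background in all 12 samples. Flt3 and Zbtb46, which define dendritic cells, were blank, and 0 of 18 listed markers of lymphocytes, neutrophils, epithelium and other cells were on the panel, so admixture of such cells could not be measured. Each value stands for a sorted pool of cells, in which fewer cells of a type and less RNA per cell cannot be told apart.

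The 12 samples were of 2 kinds that the labels do not mention. In control mice 1 to 3 and inflamed mice 1 to 4 the deposited gene values were whole counts, and in control mice 4 and 5 and inflamed mice 5 to 7 they were whole counts times 1.33. They are called whole-count and multiplied samples here, and the multiplier was divided out. The total gene count per sample was 720570 to 1326236 in control and 1351956 to 1583736 in inflamed samples, without overlap (two-sided exact permutation test, p = 0.00126, the smallest that 792 arrangements allow). Levels are given as normalised counts, that is, counts scaled by a housekeeping factor, the geometric mean over Actb, Gapdh and Rpl19. That factor differed by 0.22 on the log2 scale between the groups (exact permutation p = 0.140), but its members did not move alike: after scaling, Actb was at 163095 ± 15540 (SD, n = 5) in control and 113847 ± 5062 (n = 7) in inflamed samples, while Rpl19 was at 2634 ± 429 and 3517 ± 214, both without overlap.

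Entry into the inflamed intestine went with a changed level of 27 of the 55 targets in edgeR's quasi-likelihood test at an adjusted p of 0.05, which is 49.1% of those tested. Chemokines, inflammatory cytokines, Il10 and Arg1 were among the 12 that rose (21.8%), and receptors for chemokines, an integrin chain, MHC class II and Csf1r were among the 15 that fell (27.3%). The groups did not overlap for 17 targets (30.9%), with the inflamed samples above in 10 (18.2%) and the control samples above in 7 (12.7%). Of these 17, 15 had passed the test, and the others were Tlr4 and Stat6. The plot of log2 fold changes shows that the rises reached further than the falls, from 0.62 for Cd14 to 9.12 for Arg1 against -0.61 for Tgfb1 to -4.82 for Cx3cr1.

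**Figure D1:**
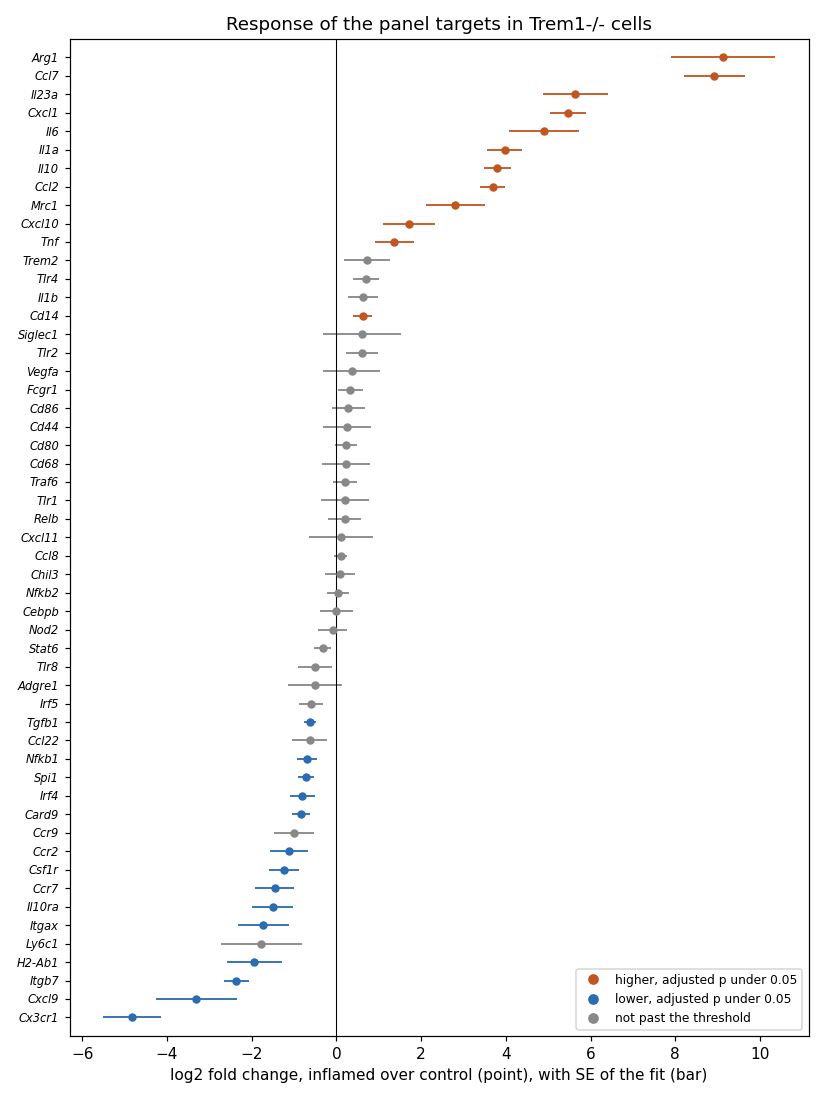
Log2 fold change of 53 of the 55 targets, inflamed over control intestine, in cells of Trem1-/- donors (points, 7 against 5 samples), with the SE of the fit (bars). Targets past the threshold are orange (12 higher) or blue (14 of the 15 lower), and Arg1 and Ccl7 stand at the top with 9.12 and 8.92, while Cx3cr1 is lowest at -4.82.

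The balance of rises and falls depended on the scaling. The median log2 fold change of the 55 targets was 0.10 with housekeeping scaling, -0.27 with total counts, 0.55 with positive control probes and 1.01 in the authors' normalised values. Accordingly, the split of 12 higher and 15 lower became 9 against 18 under total-count scaling, 15 against 4 under positive control scaling and 18 against 2 for the authors' values. Of the 27 calls, 11 held with the same sign under all 30 alternatives: Arg1, Ccl2, Ccl7, Cxcl1, Il10, Il1a, Il23a, Il6 and Mrc1 upwards, and Cx3cr1 and Itgb7 downwards.

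Among the attractants of monocytes and neutrophils, 3 of 4 tested targets rose and Ccl8 did not pass, with a list median of 4.58 against 0.10 over all targets. Ccl7, a ligand of CCR2 that attracts monocytes, had 34.1, 60.2, 228, 153 and 87.7 normalised counts in control mice 1 to 5, and a lowest, median and highest value of 42205, 54201 and 63010 in the 7 inflamed samples. Every inflamed sample was thus far above every control. The means differed 486-fold (log2 fold change 8.92, SE 0.72, adjusted p = 6.60e-10), but the size is uncertain because control counts began at 28, near the background limits of 20.6 to 47.5 counts. The Ccl7 probe reads positions 216 to 315 of transcript NM_013654.2.

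Ccl2, the main ligand of CCR2, had 2793, 2186, 2707, 5994 and 6178 normalised counts in the control mice and 40313, 54275 and 61548 (lowest, median, highest) in the inflamed ones. Control mice 4 and 5, both multiplied samples, were the highest of their group and still far below the inflamed range. Its rise was 3.69 in log2 terms (SE 0.30, adjusted p = 6.60e-10), with 4.16 within the whole-count and 3.27 within the multiplied samples. Cxcl1, which attracts neutrophils through CXCR2, was even among the controls at 191, 232, 236, 186 and 197 normalised counts and reached 5197, 8318 and 15081 in the inflamed samples. The means of Cxcl1 differed 44.3-fold (log2 fold change 5.47, SE 0.42, adjusted p = 6.10e-10). Ccl8, another monocyte attractant, was low in both groups, at 85.2 to 124.9 in control and 100.7 to 124.8 in inflamed samples (log2 fold change 0.10, SE 0.15, adjusted p = 0.651).

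Of 5 inflammatory cytokines 4 rose and Il1b did not pass (list median 3.97). Il1a, an alarmin-type cytokine of the interleukin 1 family, had 7670, 1353, 6711, 7174 and 14633 normalised counts in the control mice. The inflamed samples had 74228, 124277 and 156507 (lowest, median, highest), without overlap, and Il1a rose by 3.97 (log2, SE 0.42, adjusted p = 4.63e-08). Il23a, the p19 chain of interleukin 23, which sustains Th17 and innate lymphoid cells, had 96.1, 122, 215, 121 and 116 normalised counts in controls and 2379, 6724 and 11975 in inflamed samples. Again no sample overlapped, and Il23a rose by 5.63 (SE 0.77, adjusted p = 2.01e-06).

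Il6, which drives the acute-phase response, had 36.5, 19.6, 44.1, 335 and 154 normalised counts in the control mice and 631, 2335 and 8768 (lowest, median, highest) in the inflamed ones. In both groups the multiplied samples were the high ones: control mice 4 and 5 stood above the other 3 controls, and inflamed mice 5 to 7 at 2971, 6465 and 8768 stood above inflamed mice 1 to 4. Il6 rose by 4.90 (SE 0.83, adjusted p = 4.06e-05), by 5.57 within the whole-count and by 4.63 within the multiplied samples. Its size is uncertain because only 4 of 5 controls were above background, with counts from 13 upwards. Tnf, a cytokine that activates endothelium and leukocytes, had 99281, 73867, 61102, 18418 and 19734 normalised counts in control mice 1 to 5 and 54772, 133805 and 205162 in the inflamed samples. The multiplied control mice 4 and 5 were the lowest controls. The groups overlapped, since inflamed mouse 5 lay below control mice 1 to 3. Tnf rose by 1.36 (SE 0.46, adjusted p = 0.0200), by 1.16 within whole-count and 2.31 within multiplied samples, and its call ended without control mouse 5 (1.15, adjusted p = 0.0571) and with TMM scaling (0.78, adjusted p = 0.238) or total counts (0.94, adjusted p = 0.0933). The Tnf call also ended when Actb was left out of the housekeeping scaling (1.08, adjusted p = 0.0598). Il1b, the secreted interleukin 1, had 27277, 10975, 27121, 69790 and 54741 normalised counts in controls against 42609, 56818 and 79376 in inflamed samples (log2 fold change 0.63, SE 0.36, adjusted p = 0.156), with the multiplied controls inside the inflamed range.

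**Figure D2:**
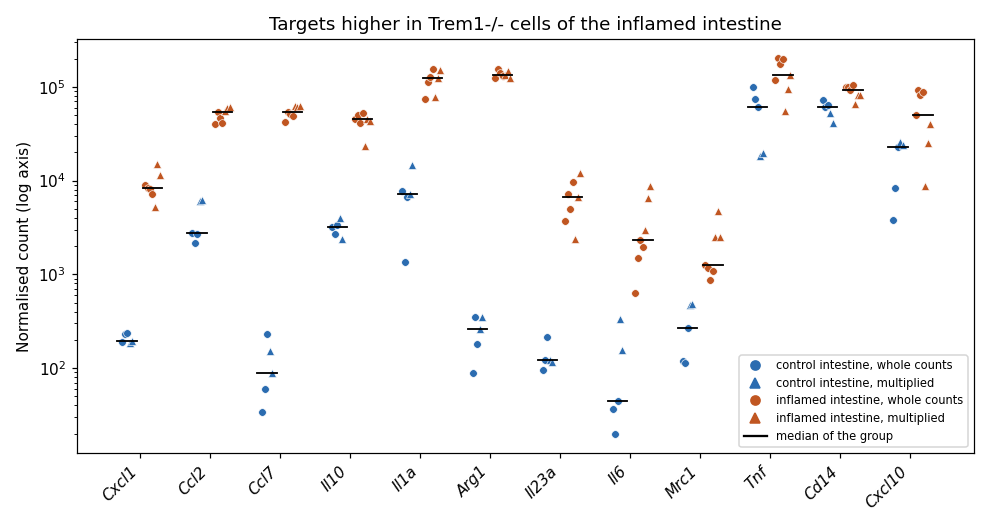
Normalised counts per mouse, on a log axis, of the 12 targets higher in Trem1-/- cells of the inflamed intestine (blue, 5 control mice, orange, 7 inflamed mice, circles for whole-count and triangles for multiplied samples, bars for group medians). From Cxcl1 to Mrc1 no inflamed sample overlaps a control, while Tnf, Cd14 and Cxcl10 overlap.

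Promoter sequences are shown for 4 cytokine and chemokine genes that passed the threshold. Il6 and Cxcl1 rose without overlap. Cxcl10 and Cxcl9 are interferon-induced genes of chromosome 5 whose log2 fold changes over the 12 samples had opposite signs. None of the 4 passed in the main test of the difference from WT cells. Each sequence is the 250 bases before the RefSeq transcription start on GRCm38.p6, 5′ to 3′ on the gene's strand: Il6 at chr5:30012864-30013113 (+), Cxcl1 at chr5:90890995-90891244 (+), Cxcl10 at chr5:92348890-92349139 (-) and Cxcl9 at chr5:92328080-92328329 (-). Capitals mark matches, searched on both strands, to the kappaB motif (GGGA, any base, TT, any base, CC), the C/EBP motif TTGCNNAA and the AP-1 motif TGANTCA, which do not overlap here.
Il6: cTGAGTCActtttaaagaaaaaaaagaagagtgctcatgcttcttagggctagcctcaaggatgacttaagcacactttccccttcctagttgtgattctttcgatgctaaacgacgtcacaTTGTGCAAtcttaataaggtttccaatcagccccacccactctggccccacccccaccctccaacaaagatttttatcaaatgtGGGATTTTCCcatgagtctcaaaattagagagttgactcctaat
Cxcl1: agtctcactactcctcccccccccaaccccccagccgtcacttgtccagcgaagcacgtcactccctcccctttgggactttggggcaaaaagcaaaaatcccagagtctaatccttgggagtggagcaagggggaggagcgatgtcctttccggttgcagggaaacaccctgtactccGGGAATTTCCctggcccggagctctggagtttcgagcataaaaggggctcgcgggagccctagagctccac
Cxcl10: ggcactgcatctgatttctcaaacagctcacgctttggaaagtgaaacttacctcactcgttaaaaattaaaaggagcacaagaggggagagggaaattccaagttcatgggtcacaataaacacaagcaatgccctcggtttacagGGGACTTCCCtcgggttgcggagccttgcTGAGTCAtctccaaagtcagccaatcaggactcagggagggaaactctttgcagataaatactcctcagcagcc
Cxcl9: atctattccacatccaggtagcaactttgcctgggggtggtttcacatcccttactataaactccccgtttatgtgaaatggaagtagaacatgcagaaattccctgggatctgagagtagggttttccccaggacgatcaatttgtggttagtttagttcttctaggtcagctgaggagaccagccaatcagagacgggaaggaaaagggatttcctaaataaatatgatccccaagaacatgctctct

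The kappaB match was GGGATTTTCC at position -44 from the start site in Il6, GGGAATTTCC at -71 in Cxcl1 and GGGACTTCCC at -103 in Cxcl10, and the Cxcl9 window held 0 matches to the motifs searched. The motif was found in 3 of the 6 windows of targets that rose and in 0 of the 8 windows of targets that fell, against 0.98% of the 32851 RefSeq windows of this length. Over all tested targets it lay in 6 of 40 windows, and the others were Tlr2 and both windows of Nfkb2, which did not pass. The AP-1 motif lay in Il6, Il1a and Cxcl10, and in Itgax among those that fell. It lay in 8 of the 40 windows of tested targets, among them Cd68, Cd80, Nfkb2 and Trem2, which did not pass, and in 6.75% of all windows. The C/EBP motif lay in Il6 (9.56%). The STAT6 motif (TTC and GAA with 4 bases between) lay in Itgax (5.85% of all windows). Windows were on hand for 14 of the 27 called targets, and a match describes the sequence and is not a measured binding site.

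Arg1, which breaks down arginine and is a mark of alternatively activated macrophages, had the highest log2 fold change of the 12-sample comparison, ahead of Ccl7 by less than the SE of either. It had 87.6, 352, 180.1, 259.6 and 351 normalised counts in the control mice and 124325, 134062 and 153559 (lowest, median, highest) in the inflamed ones, a 557-fold difference of means (log2 fold change 9.12, SE 1.23, adjusted p = 1.94e-06). The size is uncertain because control counts were low, at 72 to 316 against background limits of 20.6 to 47.5. The inflamed mice were even, with an SD of 0.12 on the log2 scale against 0.84 in controls. Arg1 took 0.00780% to 0.0325% of the total gene count in control samples and 8.19% to 10.5% in inflamed ones. Its probe reads positions 627 to 726 of NM_007482.3.

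Alternative activation as a list was mixed: of 5 tested targets, Arg1 and Mrc1 rose, Irf4 fell and Chil3 and Stat6 did not pass (list median 0.08). Mrc1, the mannose receptor of macrophages, had 118, 114, 269.7, 467 and 482 normalised counts in controls and 874, 1270 and 4788 in inflamed samples, without overlap (log2 fold change 2.81, SE 0.70, adjusted p = 0.00263). As for Il6, the multiplied samples were the high ones in each group, and the rise was 2.71 within whole-count and 2.79 within multiplied samples. Chil3, a chitinase-like protein (Ym1), had 48773 to 99641 normalised counts in controls and 44903 to 85654 in inflamed samples (log2 fold change 0.08, adjusted p = 0.875).

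Among interleukin 10 and regulatory cytokine genes, Il10 rose while Il10ra and Tgfb1 fell. Il10, an anti-inflammatory cytokine, had 3189, 2721, 3322, 3952 and 2355 normalised counts in the control mice and 23278, 45437 and 52988 (lowest, median, highest) in the inflamed ones. The groups did not overlap, although inflamed mouse 5 was far below the other 6 inflamed mice. Il10 rose by 3.80 (SE 0.31, adjusted p = 6.60e-10). Il10ra, the ligand-binding chain of its receptor, had 1269, 966, 1698, 4672 and 5167 normalised counts in controls and 562, 825 and 1742 in inflamed samples. It fell by 1.5 in log2 terms (SE 0.48, adjusted p = 0.0149). Within whole-count samples the value was -0.78 (adjusted p = 0.237) and within multiplied ones -1.98 (adjusted p = 0.0113), and the call ended without control mouse 5 (-1.15, adjusted p = 0.0670). Tgfb1, which restrains inflammation and drives repair, went from 106147 ± 10256 (SD, n = 5) to 69330 ± 5814 (n = 7) normalised counts, without overlap (log2 fold change -0.61, SE 0.14, adjusted p = 0.00133), but was at 0.27 in the authors' normalised values.

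The interferon-induced chemokines split: Cxcl10 rose, Cxcl9 fell and Cxcl11 did not pass. Cxcl9, a chemokine induced by interferon gamma that attracts T cells, had 729, 109.9, 2278, 6512 and 6370 normalised counts in controls and 67.9, 94.7 and 1552 in inflamed samples, where inflamed mouse 7 alone was above 222. It fell by 3.30 (SE 0.95, adjusted p = 0.00742), with -2.85 within whole-count samples (adjusted p = 0.0163) and -3.51 within multiplied ones (adjusted p = 0.111). The size is uncertain because inflamed counts began at 68, near their background limits of 39.4 to 53.2.

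Cxcl10, which binds the same receptor CXCR3 as Cxcl9, had 3797, 8421, 22667, 25843 and 23717 normalised counts in controls and 8846, 49894 and 92524 in inflamed samples. The 4 whole-count inflamed mice lay at 49894 or above, while the multiplied inflamed mice 5 to 7 had 8846, 25467 and 40372, a range that holds both multiplied controls. Cxcl10 rose by 1.71 over all 12 samples (SE 0.61, adjusted p = 0.0234), but by 2.75 within whole-count samples (adjusted p = 0.00370) and 0.01 within multiplied ones (adjusted p = 0.991). With the kind of sample as a block the call was lost (1.36, adjusted p = 0.0621), as it was without control mouse 1 (1.46, adjusted p = 0.0562) or 2 (1.54, adjusted p = 0.0586). Cxcl11, the remaining CXCR3 ligand, had 62.0, 28.6, 57.2, 382 and 402 normalised counts in controls and 70.6, 149 and 442 in inflamed samples (log2 fold change 0.11, SE 0.75, adjusted p = 0.908).

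Chemokine receptors and adhesion molecules gave 4 falls, 0 rises and 2 targets not past among 6 (list median -1.29). Cx3cr1, the fractalkine receptor of gut macrophages and patrolling monocytes, had 689.8, 375, 784, 3848 and 6667 normalised counts in the control mice and 57.7, 77.7 and 147 (lowest, median, highest) in the inflamed ones. No sample overlapped, and the multiplied control mice 4 and 5 were the highest. Cx3cr1 fell by 4.82 (SE 0.68, adjusted p = 2.99e-06), with -3.12 within whole-count and -5.59 within multiplied samples. The size is uncertain because inflamed counts of 58 to 147 were near their background limits of 39.4 to 53.2. Itgb7, an integrin chain by which leukocytes home to the gut, had 20729, 28777, 20669, 16071 and 13397 normalised counts in controls and 2774, 3970 and 4537 in inflamed samples. Itgb7 fell 5.15-fold without overlap (log2 fold change -2.36, SE 0.29, adjusted p = 5.84e-07), with -2.44 and -2.17 in the respective kinds of sample.

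Ccr2, the receptor for Ccl2 and Ccl7, had 49468, 58238, 72146, 130843 and 125551 normalised counts in controls and 17227, 30988 and 63480 in inflamed samples. Within each kind of sample the groups did not overlap, whereas the multiplied inflamed mice overlapped the whole-count controls. Ccr2 fell by 1.12 (SE 0.45, adjusted p = 0.0450). This call had the highest adjusted p of the 27: 5 of 12 omissions of a mouse kept it, and it ended without control mouse 3, 4 or 5 (-1.18, -0.93 and -0.95) or inflamed mouse 1, 2, 3 or 4 (-1.07, -1.05, -1.04 and -0.99), with adjusted p between 0.0512 and 0.129. Ccr7, which leads cells to lymph nodes, had 5405, 2824, 4890, 1394 and 915 normalised counts in controls and 574, 1083 and 2066 in inflamed samples. It fell by 1.46 (SE 0.47, adjusted p = 0.0149), and the call ended without control mouse 1 (-1.16, adjusted p = 0.0562). The Ccr7 call also ended within multiplied samples (-0.72, adjusted p = 0.370). With positive control scaling (-0.80, adjusted p = 0.227) and in the authors' values (-0.39, adjusted p = 0.621) it was lost too. Ccr9, the receptor for the small-intestinal chemokine CCL25, was at -1.0 (adjusted p = 0.0911).

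**Figure D3:**
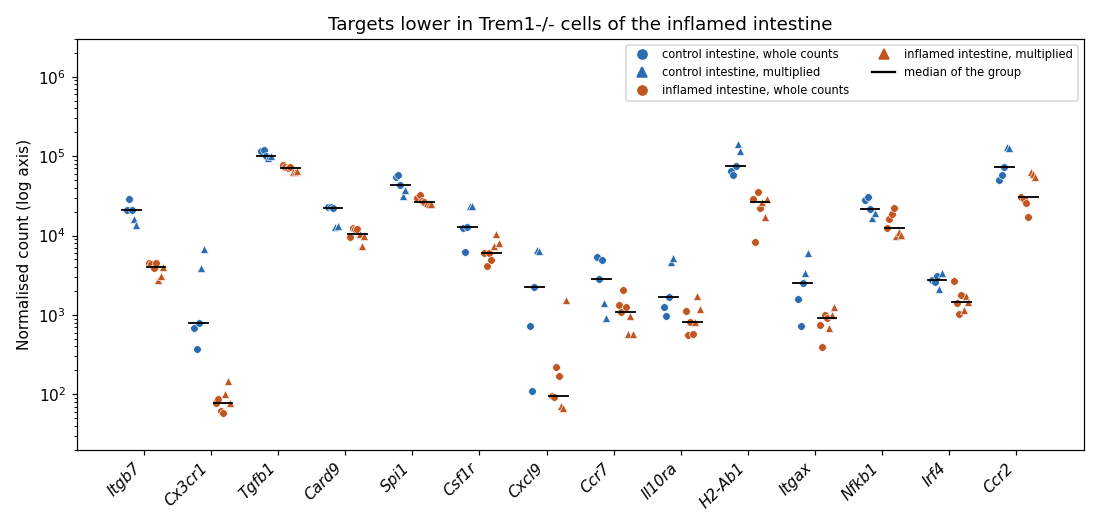
Normalised counts per mouse, on a log axis, of 14 of the 15 targets lower in Trem1-/- cells of the inflamed intestine (symbols as in the plot of higher targets). Itgb7, Cx3cr1, Tgfb1, Card9 and H2-Ab1 do not overlap between the groups, and Tgfb1, Card9, Spi1, Nfkb1 and Irf4 are small falls whose sign turned in the authors' normalised values.

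Of 5 antigen presentation and dendritic cell genes 4 fell and Ccl22 did not pass (list median -1.46). H2-Ab1, which encodes an MHC class II chain, had 65180, 58646, 75123, 141109 and 116446 normalised counts in controls and 8261, 26394 and 34925 in inflamed samples, without overlap. It fell by 1.94 (SE 0.64, adjusted p = 0.0179), with -1.49 within whole-count and -2.41 within multiplied samples. The H2-Ab1 call held in 27 of 30 alternatives. It was lost with positive control scaling (-1.503, adjusted p = 0.113) and in the authors' values (-1.09, adjusted p = 0.337). With limma on the housekeeping-normalised counts it was lost too (-1.97, adjusted p = 0.0537). Itgax (CD11c), found on dendritic cells and gut macrophages, had 1596, 726, 2544, 3350 and 5956 normalised counts in controls and 399, 922 and 1270 in inflamed samples. It fell by 1.72 (SE 0.61, adjusted p = 0.0225), with -1.08 within whole-count samples (adjusted p = 0.173) and -2.25 within multiplied ones (adjusted p = 0.0522), and the call ended without control mouse 5 (-1.26, adjusted p = 0.105). The summed level of the measured dendritic cell markers, Itgax, Ccr7 and H2-Ab1, ran from 62195 to 145852 in control and 9743 to 37994 in inflamed samples, with Flt3 and Zbtb46 blank. Most of that sum was H2-Ab1, and Itgax and Ccr7 overlapped between the groups. The summed level of the 6 monocyte markers ran from 184918 to 244075 in control and 152834 to 180097 in inflamed samples. The part of a changed cell makeup in these falls was not tested. The costimulatory ligands Cd80 and Cd86 did not pass, at log2 fold changes of 0.23 (adjusted p = 0.550) and 0.28 (adjusted p = 0.634).

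Of 9 pattern recognition genes 1 rose, 1 fell and 7 did not pass. Cd14, a co-receptor for lipopolysaccharide, had 72961, 61200, 64636, 53200 and 41444 normalised counts in controls and 66263, 93887 and 105482 in inflamed samples. Of the inflamed mice, 6 of 7 lay above every control, and Cd14 rose by 0.62 (SE 0.22, adjusted p = 0.0225), but not past the threshold without control mouse 5 (0.52, adjusted p = 0.0708) and with TMM scaling (0.19, adjusted p = 0.649) or total counts (0.24, adjusted p = 0.406). Nor did Cd14 pass when Actb was left out of the housekeeping scaling (0.36, adjusted p = 0.237). The same held with DESeq2 (0.42, adjusted p = 0.228) and within multiplied samples (0.70, adjusted p = 0.0836). Tlr4, the lipopolysaccharide receptor, was higher in all 7 inflamed samples, at 10260 to 19438 against 7261 to 8996, but did not pass (log2 fold change 0.71, SE 0.31, adjusted p = 0.0648). Card9, an adaptor for fungal lectin receptors, went from 18765 ± 5314 (SD, n = 5) to 10523 ± 1736 (n = 7) normalised counts without overlap (log2 fold change -0.83, SE 0.21, adjusted p = 0.00263), with 0.08 in the authors' values. Tlr2, for bacterial lipopeptides, was near background in both groups, at 16.6 to 92.2 and 42.0 to 82.8 normalised counts. It did not pass over the 12 samples (log2 fold change 0.61, adjusted p = 0.200), but did with the kind of sample as a block (0.80, adjusted p = 0.0259), within whole-count samples (1.51, adjusted p = 0.00754) and without control mouse 5 (1.07, adjusted p = 0.0253).

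Transcription factors showed small falls or did not pass. Spi1 (PU.1), the master factor of the myeloid lineage, had 55339, 57762, 43598, 31018 and 36955 normalised counts in controls and 24681, 26796 and 32547 in inflamed samples. It fell by 0.72 (SE 0.20, adjusted p = 0.00569) with housekeeping scaling, against 0.20 in the authors' values. Irf4, needed for some dendritic cells and for alternative activation, fell by 0.81 (SE 0.30, adjusted p = 0.0274), against 0.03 in the authors' values, and 7 of 12 omissions kept the call. It ended without control mouse 3 or 5 (-0.76 and -0.73) or inflamed mouse 2, 3 or 5 (-0.78, -0.72 and -0.74). Nfkb1, the p105/p50 subunit of NF-kappaB, fell by 0.70 (SE 0.24, adjusted p = 0.0225), against 0.16 in the authors' values, and lost its call without control mouse 1 (-0.62) or 2 (-0.58). Nfkb2, Relb, Cebpb and Irf5 did not pass, with log2 fold changes of 0.04, 0.20, 0.00 and -0.60.

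Of 6 monocyte markers Cd14 rose, Ccr2, Spi1 and Csf1r fell, and 2 did not pass, Ly6c1 among them (list median -0.92). Csf1r, the receptor for macrophage colony-stimulating factor, had 12522, 6267, 12735, 23838 and 23673 normalised counts in controls and 4079, 5970 and 10506 in inflamed samples. It fell by 1.23 (SE 0.35, adjusted p = 0.00707), and control mouse 2 was the only control inside the inflamed range. The Csf1r call held in 27 of 30 alternatives. It was lost within whole-count samples (adjusted p = 0.0881), with positive control scaling (-0.82, adjusted p = 0.220) and in the authors' values (-0.25, adjusted p = 0.709). Ly6c1 had 913 to 4542 normalised counts in controls and 162 to 1748 in inflamed samples (log2 fold change -1.78, SE 0.96, adjusted p = 0.138). The macrophage gene Adgre1 (F4/80, listed under its older name Emr1), Cd68, Fcgr1, Siglec1 and Trem2 did not pass, with log2 fold changes of -0.51, 0.22, 0.33, 0.61 and 0.72. Vegfa, an angiogenic growth factor, was at 0.36 (adjusted p = 0.721).

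Taken over both kinds of sample together, the mice of the inflamed group were more alike than the controls. The SD of log2 levels was smaller in the inflamed group for 42 of 55 targets, with a median of 0.44 against 0.80, and this is a description without a test. These SD include the gap between whole-count and multiplied samples, and the spread within each kind was not compared. The 12 targets that rose took 9.18% to 16.9% of the total gene count in control samples and 39.0% to 55.3% in inflamed ones. These targets were chosen by their rise, so the shares describe its size and add no support to it.

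The difference between whole-count and multiplied samples was then examined, because it divided the mice of both groups. A test of this difference, added after the values were seen and run on the 12 samples with intestinal state in the model, gave 28 of 55 targets past the threshold (50.9%), 20 higher (36.4%) and 8 lower (14.5%) in multiplied samples. Cd68, a lysosomal protein of macrophages, had 4631, 2340 and 4558 normalised counts in the whole-count and 16924 and 20939 in the multiplied controls. In the inflamed group its whole-count samples had 5153 to 7207 and its multiplied samples 16880 to 20267, so the kinds did not overlap in either group (difference 1.86, SE 0.20, adjusted p = 5.85e-05). Tlr8 (1.31), Ccr2 (1.16), Ccr9 (1.82), Adgre1 (1.95), Fcgr1 (0.71), Il6 (2.29) and Mrc1 (1.54) were also higher in multiplied samples. Ccr7 (-1.39), Tnf (-1.33) and Traf6 (-0.68) were lower.

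**Figure D4:**
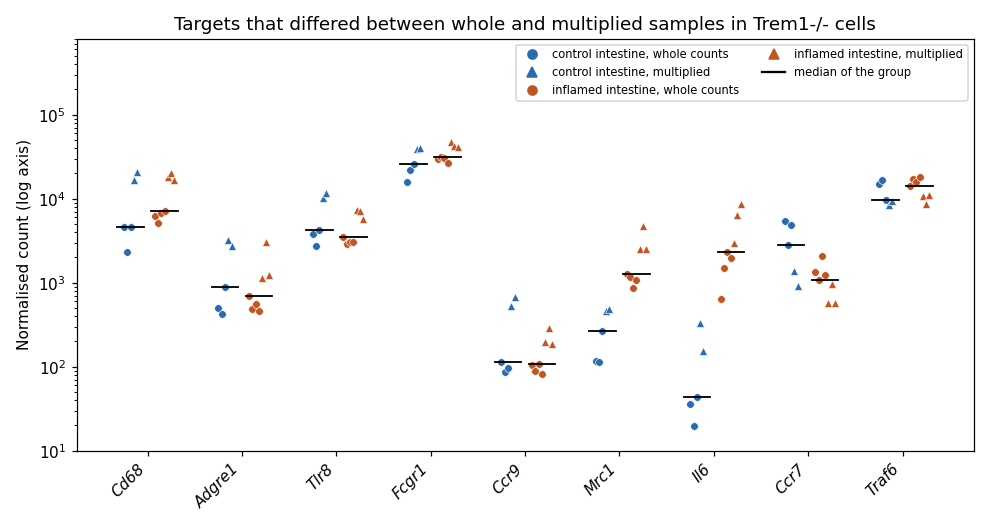
Normalised counts per mouse, on a log axis, of 9 targets that differed between whole-count (circles) and multiplied samples (triangles) in Trem1-/- cells of control (blue) and inflamed (orange) intestine, with group medians as bars. In both groups the triangles lie above the circles for Cd68, Tlr8, Fcgr1 and Ccr9, and below them for Traf6.

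Each kind held both groups, so the response could be estimated within each, from 3 against 4 whole-count and 2 against 3 multiplied Trem1-/- samples. These fits also held the WT samples of each kind, so their p-values rest partly on the spread between WT samples. The same holds for the fits with the kind as a block, quoted above for Cxcl10 and Tlr2. The WT multiplied samples carried multipliers of 1.333 or 2, so the multiplied kind joined unlike samples in both sorts of fit. All 27 called targets had the same sign within both kinds in the fits. Cxcl10 was at 0.01 within multiplied samples, where its mean log2 levels differed by -0.25. Past the threshold in both kinds were 14: Arg1, Ccl2, Ccl7, Cxcl1, Il10, Il1a, Il23a, Il6, Mrc1 and Tnf upwards, and 4 downwards, Cx3cr1, H2-Ab1 and Itgb7 among them. Of the 28 targets that had not passed, 13 had opposite signs in the 2 kinds. Called and other targets were told apart on these same samples, so the agreement of signs adds no support to the calls. The response itself differed between the kinds for 6 of 55 targets (10.9%), all with the lower value in multiplied samples and an adjusted p of 0.0194. These were Ccl2 (-0.89), Ccr9 (-1.40), Cd86 (-1.56), Cx3cr1 (-2.48), Cxcl11 (-3.80) and Tlr2 (-1.61). The kinds also differed in the positive control probes, which do not come from the cells. Their geometric mean was 966 to 1783 in whole-count and 766 to 914 in multiplied samples, without overlap. It also varied with intestinal state, at 1411 to 1783 in whole-count controls and 966 to 1033 in whole-count inflamed samples. Over all 12 samples the log2 difference, inflamed minus control, was -0.43 (exact permutation p = 0.0593), which positive control scaling carries into its fold changes. The sources used here did not say why part of the samples carried a multiplier, and what else separated them was not tested.

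**Figure D5:**
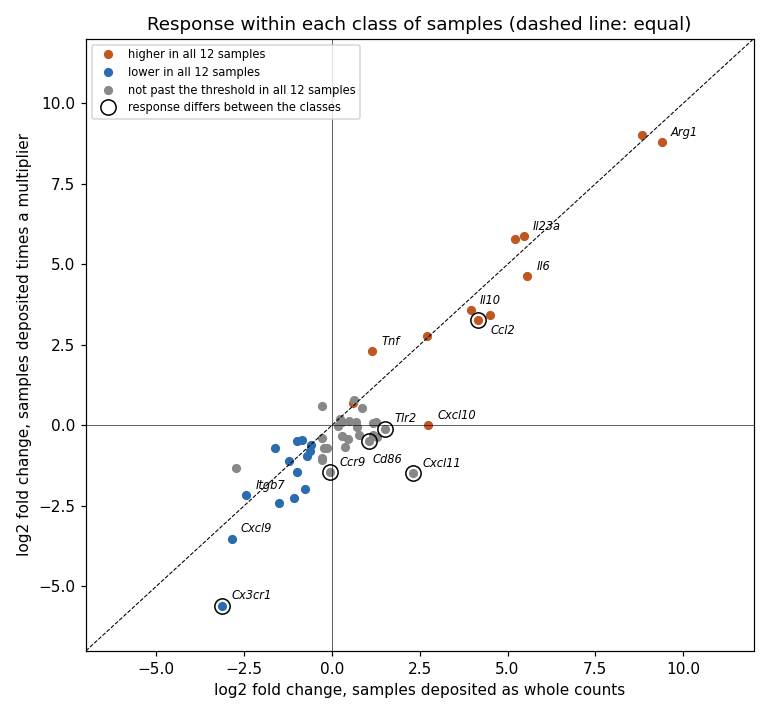
Log2 fold change of 53 targets, inflamed over control, within whole-count samples (x axis, 3 control and 4 inflamed) and within multiplied samples (y axis, 2 control and 3 inflamed), coloured by the call in all 12 samples, with the dashed line marking equal values. Arg1 lies near the line at 9.39 and 8.80, Cx3cr1 lies off it at -3.12 and -5.59 and Cxcl10 at 2.75 and 0.01, and rings mark the 6 targets whose response differed.

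Whether the response of Trem1-/- cells differed from that of WT cells was asked of the same 55 targets, and 2 passed (3.64%). The multiplied samples among WT cells were not of the same make, with multipliers of 1.333 or 2 that had been applied to the control probes too, so values within multiplied samples join unlike samples here. Il10 stood at 2355 to 3952 normalised counts in Trem1-/- controls and 23278 to 52988 in Trem1-/- inflamed samples, against 1493 to 5051 and 11179 to 20171 in WT cells. Every Trem1-/- inflamed sample was above every WT inflamed sample, while the controls of both genotypes overlapped. The rise was larger in Trem1-/- cells by a log2 difference of 1.74 (SE 0.39, adjusted p = 0.0130), by 1.41 within whole-count samples (adjusted p = 0.0771) and by 2.01 within multiplied ones (adjusted p = 0.185).

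Cd80, a costimulatory ligand for T cells, had 10362, 15720, 10237, 11240 and 10999 normalised counts in Trem1-/- controls and 11214, 12793 and 18597 (lowest, median, highest) in Trem1-/- inflamed samples. In WT cells it ran from 7613 to 20611 in control and from 23187 to 63638 in inflamed samples, so the inflamed groups of the genotypes did not overlap. The response was lower in Trem1-/- cells, with a log2 difference of -1.48 (SE 0.38, adjusted p = 0.0213). This call ended without Trem1-/- control mouse 2 (-1.35, adjusted p = 0.0570), WT control mouse 2 (-1.39, adjusted p = 0.0547), WT inflamed mouse 2 (-1.26, adjusted p = 0.0619) or WT inflamed mouse 5 (-1.40, adjusted p = 0.0513). It also ended with TMM scaling (-1.35, adjusted p = 0.0690), positive control scaling (-1.24, adjusted p = 0.0970), the authors' values (-1.16, adjusted p = 0.268) and a block for mouse number (-1.42, adjusted p = 0.101). Within whole-count samples the difference was -1.78 (adjusted p = 0.0220) and within multiplied ones -1.22 (adjusted p = 0.523). Cxcl1 (1.57, adjusted p = 0.0704), Cxcl10 (2.54, adjusted p = 0.114), Itgb7 (-1.20, adjusted p = 0.114) and Ccl7 (1.90, adjusted p = 0.138) did not pass. With the kind of sample as a block, Cxcl1 (1.61) and Ccl2 (1.09) passed as well, each with an adjusted p of 0.0206. Within whole-count samples 16 targets passed, 11 with a higher and 5 with a lower response in Trem1-/- cells. The higher ones included Siglec1 (8.35, adjusted p = 0.00084), H2-Ab1 (5.08, adjusted p = 0.00141), Arg1 (6.75) and Mrc1 (3.57, both adjusted p = 0.00646). Cxcl10 (3.77, adjusted p = 0.0165), Ccl2 (1.5, adjusted p = 0.0285) and Cxcl1 (1.56, adjusted p = 0.0465) were also higher. Itgb7 (-1.37, adjusted p = 0.0261) and Tnf (-1.75, adjusted p = 0.0322) were among the lower ones. Within multiplied samples 0 targets passed.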

How the data were processed

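Expression was measured on the NanoString nCounter in 28 samples, of which the 22 intestinal ones entered the fit and 12 are described. The authors deposited a table of barcode counts per probe. In 7 Trem1-/- samples its gene values were whole counts. In 5 the authors deposited expected counts, in the sense of each whole count times 1.33 (found from the values, tolerance 0.0001), with control probes not multiplied. The multiplier was divided out. The authors also deposited a normalised score without a stated unit, equal to the raw values times 1 factor per sample (0.496 to 1.74), which was used as an alternative. The counting software is not given in the sources used here.

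Counts were scaled by Actb, Gapdh and Rpl19, and a target was tested if above the mean plus 2 SD of 5 negative probes in at least 3 samples. All 55 targets with values passed, with 52 to 55 above background per sample. Tests used edgeR 4.0.16 (quasi-likelihood, two-sided, R 4.3.3) in 1 fit of 22 samples, with Benjamini-Hochberg adjustment over 55 targets and a threshold of 0.05. SE are those of the fit. Alternatives used DESeq2 1.42.0 and limma 3.58.1 on log2 values with a pseudocount of 1, and other scalings, filters, blocks and omissions. Scripts were tested on simulated data. Total gene counts were 720570 to 1583736 per sample and, after pre-amplification without molecular identifiers, limit counting error only. No sample was a copy of another (lowest chi-square per degree of freedom 264.9). Deviations from group means correlated at -0.29 to 0.59 (median 0.26) for equal mouse numbers and at -0.57 to 0.45 (median -0.08) for unequal ones. All 17 pairs of unlike kinds of sample correlated below 0. With 5 equal pairs and the kinds mixed in, these values cannot tell whether mouse numbers pair the samples. Every tested target may be named, with full statistics for those past the threshold. Of 72 targets, 69 matched RefSeq by transcript, and 12 were blank in all samples, Gusb, Hprt and 10 others, among them Flt3, Zbtb46, Nos2, Stat3, Cd163, Pparg, Il4 and Csf2. Samples, gene lists and tests were chosen with earlier results of these data known. Some tested targets are counted but not reported here by name.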

Additional observations from a re-analysis of the deposited data

Results flagged for a closer look

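Within the Trem1-/- groups, 5 of 116 group and target combinations held a sample set apart from the others by Dixon's test, where chance gives about 1 in 20. In the inflamed group, mouse 5 had 23278.1 normalised counts of Il10 against 41523.1 to 52987.9 in the other mice, and it was still above every control. Inflamed mouse 7 had 1552.1 of Cxcl9 against 67.9 to 221.6, which puts it inside the control range. Inflamed mouse 1 had 42.0 of Tlr2 against 63.9 to 82.8, close to background. Inflamed mouse 2 had 123790.9 of the housekeeping gene Actb against 108277.7 to 114666.2. In the control group, mouse 2 had 15719.6 of Cd80 against 10237.3 to 11240.0, and without it Cd80 no longer passed in the comparison of genotypes.

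The response of Trem1-/- cells differed from that of WT cells in the test of the difference itself for Il10, by 1.74 on the log2 scale, and for Cd80, by -1.48. The Il10 difference held in 35 of 38 alternatives and the Cd80 difference in 29 of 38.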

How the results depend on the processing

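The count of 27 called targets stayed within 1.5 times in all 30 alternatives (19 to 38), the lowest with positive control scaling and within multiplied samples (19 each) and the highest in Trem1-/- samples alone with the kind of sample as a block (38, added after seeing the data). Omitting a mouse gave 22 to 28, and 18 targets kept their call in all 12 omissions. In the authors' normalised values 5 called targets changed sign, Card9 (0.081), Irf4 (0.028), Nfkb1 (0.16), Spi1 (0.20) and Tgfb1 (0.27), on a scale whose median is 1.01 over the 55 targets. For the difference between genotypes, the 2 calls became 7 with DESeq2, 1 with positive control scaling, 0 with limma on the authors' values (8 at an unadjusted p under 0.05), 4 with the kind of sample as a block, 16 within whole-count samples, 0 within multiplied samples with edgeR (4 unadjusted), and 1 to 4 when a mouse was omitted: 1 without WT inflamed mouse 2 or 5 or mouse 2 of either control group, and 4 without Trem1-/- inflamed mouse 5. The causes were not tested. The mouse number as a replicate block gave 26 calls (12 higher, 14 lower) in the main comparison and 1 between genotypes, although only 2 of 5 control mice correlated best with the inflamed mouse of their own number. Background limits the size of changes in Il6, Ccl7, Cx3cr1, Cxcl9, Arg1, Tlr2 and Cxcl11.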
